A study of Mus musculus with 24 samples.

Results

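Immunoglobulin variable segments are the gene pieces that encode the antigen-binding end of an antibody chain. Described here are the 157 gene symbols starting with Ighv (heavy chain), Igkv (kappa light chain) or Iglv (lambda light chain) that were chosen by their highest level, above 1 CPM (counts per 1000000 reads) in at least 1 of 24 mice. They were taken from 346 such symbols in a table of 32544, and comprised 78 of 183 Ighv, 76 of 160 Igkv and 3 of 3 Iglv segments. Polyadenylated RNA was sequenced from snap-frozen inguinal mammary glands of mice of 2 genotypes, BL/6 C57 and BL/6 NZB, names that are used for mice on a BL/6 background with C57 or NZB mitochondrial DNA. Glands came from mice that were not lactating and from mice on days 8, 14 and 21 of lactation, with 3 mice in each of 8 groups. No treatment or transgene is named, and ages are not stated. The mice of a group are numbered 1 to 3 as in their titles, and nothing in the labels says how the mice of different groups are related.

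A B cell joins 1 variable segment to a short joining piece, in heavy chains with a diversity piece between them, and splices the product to a constant region. The segments that appear in RNA therefore reflect which rearranged chains the B cells and plasma cells of a tissue make. A resting B cell makes little of this RNA, while a plasma cell, the antibody-secreting end stage, makes very much. In lactation, plasma cells that make IgA home to the mammary gland. They are drawn by the chemokine Ccl28, and the epithelial receptor Pigr carries their IgA into milk. In bulk tissue, more cells of a type and more RNA per cell cannot be told apart. The inguinal gland also has a lymph node embedded in it, rich in B and T cells.

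The rule used only the highest level over all mice, so the segments just inside and just outside it differ little. Ighv5-15, Igkv4-51 and Igkv4-58 peaked at 1.01, 1.06 and 1.06 CPM and were kept, while Ighv1-47, Ighv1-84 and Igkv4-79 peaked at 0.980, 0.975 and 0.964 CPM and were left out. The 189 symbols left out held 0.683% to 9.12% of variable segment CPM in a mouse, and 68 of them were at 0 in every mouse. Because 144 of the 157 segments had their highest level in an NZB day 21 mouse, and 37 exceeded 1 CPM only there, counts over the chosen segments lean towards that group. Tests of summed levels are therefore given for all 346 symbols, a set that no measured value chose.

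Some features of the libraries bear on these results. Each mouse has 2 columns, one for each read file of a pair, and the assigned reads of the second ran from 9.90 to 24.2 in units of 1000000. The first column of mouse 2 of the C57 non-lactating group was shallower, at 2.17 in the same unit. C57 non-lactating mouse 3 carries an NZB genotype tag and a C57 title, and was kept as C57. Without it the log2 difference of the summed segment level was 3.66 between lactating and non-lactating glands and 1.69 between NZB and C57, against 3.70 and 1.705 with it. The 10 milk genes used for scaling, caseins and other milk genes such as Wap and Lalba, held 0.282% to 1.70% of CPM in non-lactating glands, 56.9% to 73.7% in lactating glands up to day 14 and in C57 on day 21, and 15.2% to 27.1% in NZB on day 21. Segment levels are therefore given on 2 scales, CPM as deposited and CPM after these milk genes were left out of the total, here called non-milk CPM.

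The segment use of the C57 day 14 and day 21 glands is given first, because the C57 results rest on these glands. Each C57 day 14 gland used nearly the same mixture of segments as the C57 day 21 gland with the same mouse number. The Morisita-Horn overlap, which is 1 for identical mixtures and 0 for mixtures with no segment in common, was 0.965 between the glands numbered 1, 0.963 between those numbered 2 and 0.964 between those numbered 3. These were the 3 highest values among all 276 pairs of glands, and the next was 0.915, between C57 day 8 mice 2 and 3. The 6 pairs of C57 day 14 and day 21 glands with different numbers had overlaps of 0.494 to 0.684. Over Igkv segments alone the same 3 pairs again ranked highest, at 0.966 to 0.973. Over Ighv segments alone they reached 0.881 to 0.919 and were not the 3 highest, as a pair of NZB lactating glands reached 0.914. Of the 10 most abundant segments of a gland, the matched glands shared 8, 9 and 9.

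**Figure D1:**
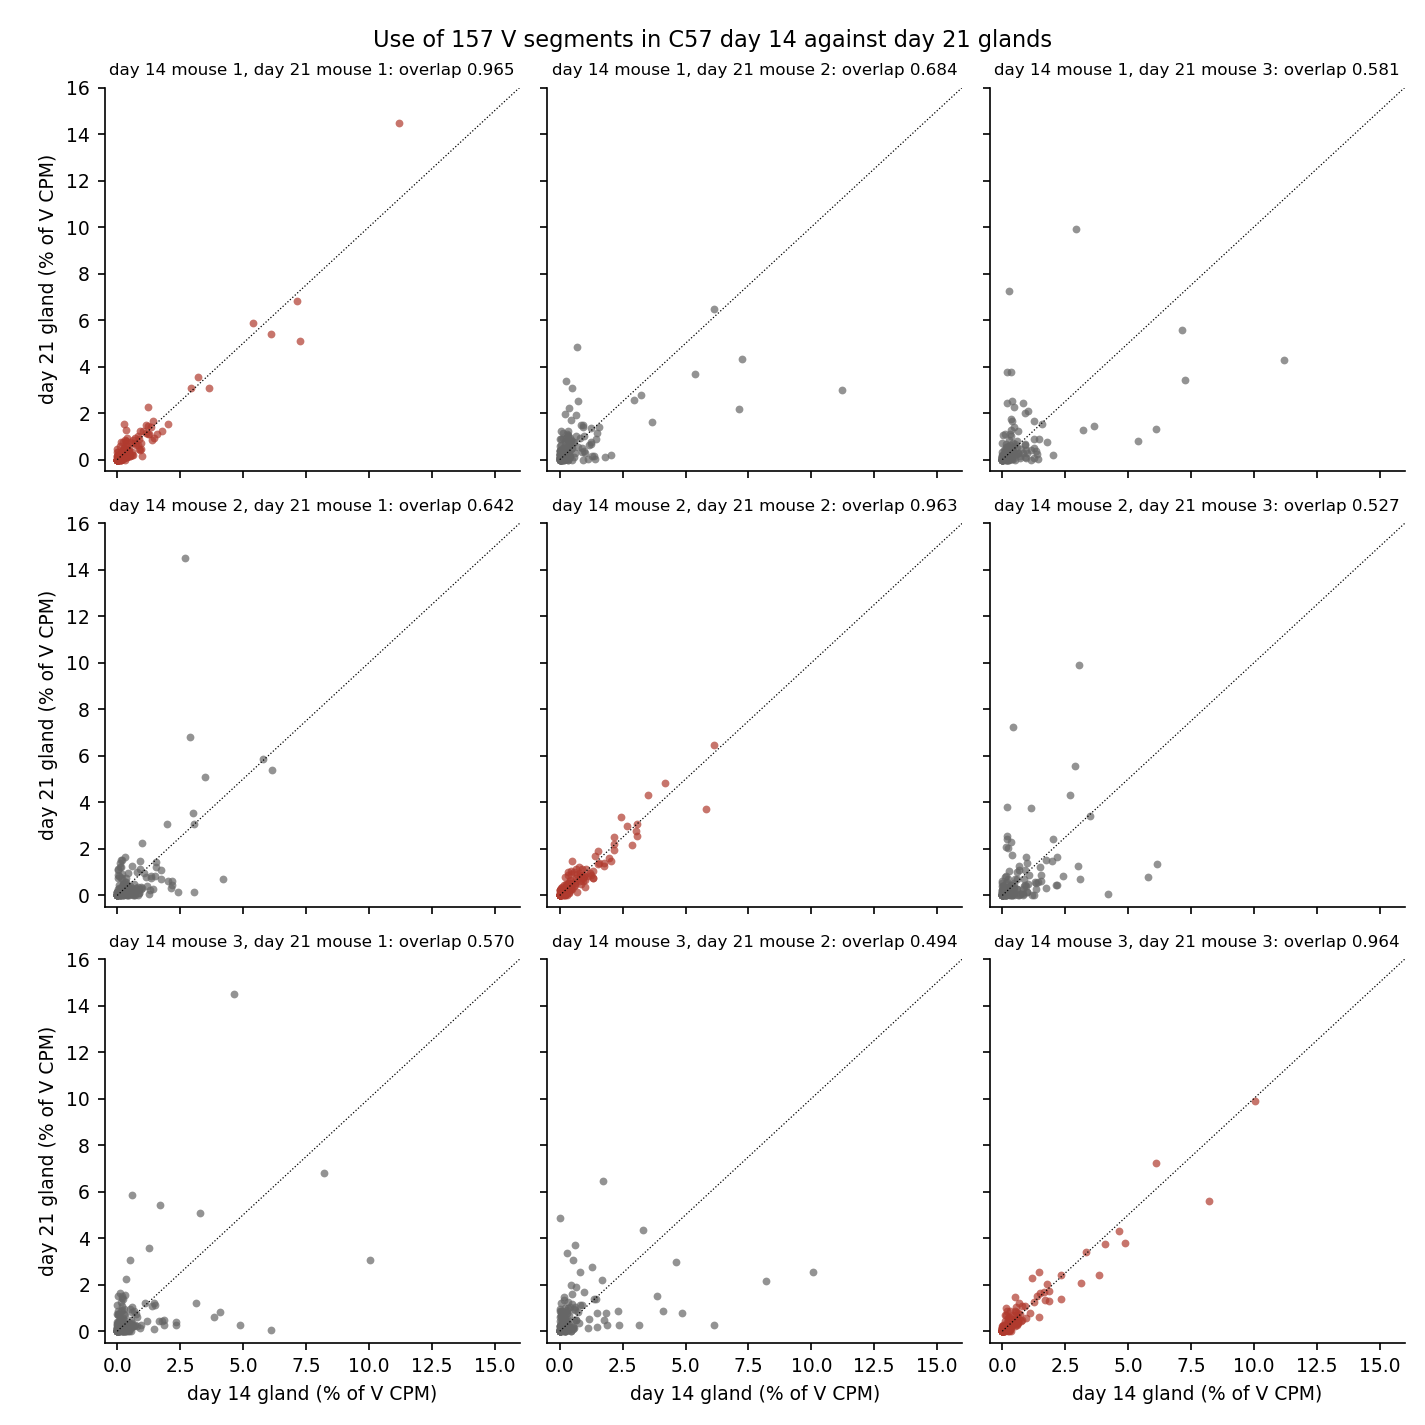
Each point is 1 of 157 variable segments, plotted as its share of the variable segment CPM (%) in a C57 day 14 gland (x axis) and a C57 day 21 gland (y axis), for all 9 pairs of glands, with red for equal mouse numbers and a dotted line of equality. The 3 red panels lie along the line with overlaps of 0.963 to 0.965, and the 6 grey panels scatter with overlaps of 0.494 to 0.684.

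Some segments were more abundant in the glands of 1 number than in the others, and 3 are described here. Igkv14-111 held 11.2% of variable segment CPM in day 14 mouse 1 and 14.5% in day 21 mouse 1, against 2.69% to 4.63% in the 4 glands of other numbers. Igkv4-53 held 4.20% and 4.85% in the glands numbered 2, against 0.0189% to 0.711% in the others. Igkv8-19 held 6.12% and 7.25% in the glands numbered 3, against 0.0711% to 0.442% in the others. In CPM these pairs were 14.4 and 17.4, 4.90 and 7.003, and 7.91 and 9.26. All segments with at least 3% in either gland were then counted. This choice by level in the same glands favours a lead over glands of other numbers. The share over all 157 segments was not counted, so the counts describe these segments and support no more. In number 1, 4 of 8 were above every gland of another number in both glands. The same held for 4 of 8 in number 2 and 6 of 9 in number 3, and the rest were not above. Igkv4-59, for example, was abundant under more than 1 number, with 7.13% and 6.81% in number 1 and 8.20% and 5.58% in number 3. Igkv19-93 (3.07% and 3.06% in number 2) and Igkv4-72 (4.88% and 3.78% in number 3) are further cases, picked after their values were seen.

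The coding sequences of 6 segments are shown because the results turn on them. They are the pair that was most abundant over all glands, Igkv10-96 and Igkv1-110, the near copy Igkv1-117, and the segments named above that were abundant in the C57 glands numbered 1, 2 and 3. They are germline sequences from GENCODE M21 (GRCm38), 5′ to 3′ on the coding strand, and rearranged chains in the glands can differ by somatic mutation. Of each, the last 300 bases of the coding sequence are printed, which start at base 48 of 347 in Igkv10-96, 60 of 359 in Igkv1-110 and Igkv1-117, 54 of 353 in Igkv14-111, 59 of 358 in Igkv4-53 and 66 of 365 in Igkv8-19. Capitals mark bases that differ from the closest other segment of the table in a global alignment. Igkv10-96 lies at chr6:68631963-68632442 on the minus strand (closest Igkv10-94, 95.4% identical), Igkv1-110 at chr6:68270485-68271267 and Igkv1-117 at chr6:68121046-68121827 on the plus strand (closest to each other, 97.2%), Igkv14-111 at chr6:68256389-68256869 on the plus strand (closest Igkv14-126, 91.5%), Igkv4-53 at chr6:69648824-69649363 on the minus strand (closest Igkv4-60, 97.2%) and Igkv8-19 at chr6:70340876-70341453 on the minus strand (closest Igkv8-28, 97.5%).
Igkv10-96: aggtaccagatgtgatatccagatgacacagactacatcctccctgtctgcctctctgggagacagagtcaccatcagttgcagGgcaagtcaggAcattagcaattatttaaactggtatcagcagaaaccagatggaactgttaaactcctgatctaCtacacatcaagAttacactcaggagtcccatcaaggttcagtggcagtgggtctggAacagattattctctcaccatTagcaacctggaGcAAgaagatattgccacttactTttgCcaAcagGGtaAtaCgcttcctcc
Igkv1-110: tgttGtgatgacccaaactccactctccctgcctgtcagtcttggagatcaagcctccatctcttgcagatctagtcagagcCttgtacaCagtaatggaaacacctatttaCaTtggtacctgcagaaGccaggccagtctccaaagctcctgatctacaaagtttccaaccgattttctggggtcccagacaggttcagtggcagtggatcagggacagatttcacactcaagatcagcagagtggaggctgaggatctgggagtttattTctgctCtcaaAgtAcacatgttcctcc
Igkv1-117: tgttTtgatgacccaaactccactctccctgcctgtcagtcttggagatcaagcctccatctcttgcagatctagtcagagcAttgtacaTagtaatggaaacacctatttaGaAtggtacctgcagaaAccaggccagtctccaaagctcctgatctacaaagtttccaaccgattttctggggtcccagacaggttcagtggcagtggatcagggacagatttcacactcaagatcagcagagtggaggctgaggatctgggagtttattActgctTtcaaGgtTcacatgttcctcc
Igkv14-111: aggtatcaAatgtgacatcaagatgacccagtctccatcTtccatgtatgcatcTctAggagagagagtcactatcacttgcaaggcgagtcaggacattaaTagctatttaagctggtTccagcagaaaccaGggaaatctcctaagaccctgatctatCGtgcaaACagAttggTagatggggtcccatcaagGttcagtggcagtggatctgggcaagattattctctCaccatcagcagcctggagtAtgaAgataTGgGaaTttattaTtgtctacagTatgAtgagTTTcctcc
Igkv4-53: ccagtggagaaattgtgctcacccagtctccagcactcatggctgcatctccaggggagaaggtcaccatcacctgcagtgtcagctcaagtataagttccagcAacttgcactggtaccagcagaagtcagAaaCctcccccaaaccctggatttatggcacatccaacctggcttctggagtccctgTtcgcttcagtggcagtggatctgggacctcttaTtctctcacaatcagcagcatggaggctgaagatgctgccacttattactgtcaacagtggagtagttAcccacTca
Igkv8-19: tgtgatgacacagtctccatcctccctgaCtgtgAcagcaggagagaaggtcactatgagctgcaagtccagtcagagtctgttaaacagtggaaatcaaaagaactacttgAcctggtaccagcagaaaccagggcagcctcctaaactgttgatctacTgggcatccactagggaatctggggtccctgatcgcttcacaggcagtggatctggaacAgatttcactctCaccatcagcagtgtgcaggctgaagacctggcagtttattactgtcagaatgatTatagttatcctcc

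Igkv1-110 and Igkv1-117 differ at 10 bases over 359, all in the printed stretch, and Igkv8-19 differs from Igkv8-28 at 9 bases over 365, of which 7 are printed. Of the 157 segments 79 were at least 95% identical to another segment of the table, as were 11 of the 22 that ranked among the 3 most abundant of any gland. The authors' way of assigning reads to such near copies is not stated, so a level of 1 segment is uncertain where a near copy exists. Igkv14-111 shared no 50-base stretch with another segment, and 55.8% of the 50-base windows of Igkv1-110 occurred in no other segment.

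The matched glands were not the same counts deposited under 2 labels. In the second column the chi-square per segment between them was 2.30 to 2.87, while the 2 columns of 1 mouse gave 0.530 to 1.52 in the 19 mice where at least 20 segments could be compared. Over genes outside the segments it was 4.49 to 24.6 between the matched glands and at most 1.59 between the columns of a mouse. Lymphocyte genes were higher in both C57 glands numbered 1. The 13 B cell genes listed summed to 140 and 115 non-milk CPM on days 14 and 21 there and to 40.9 to 56.7 in the other 4 glands. The T cell gene Cd3e stood at 12.2 and 11.0 non-milk CPM in the C57 day 14 and day 21 glands numbered 1 and at 0.904 to 2.69 in the other 4. Their part in the segment use was not tested. Whether the matched glands share an animal, a cage or a library cannot be told apart from the labels. The tests of summed level and effective number and the C57 counts of called segments are given below also without the C57 day 14 or day 21 glands. No other pair of groups had same-numbered mice whose segment use deviated together in all 3 pairs beyond a correlation of 0.1, and for C57 days 14 and 21 these correlations were 0.739 to 0.775.

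**Figure D2:**
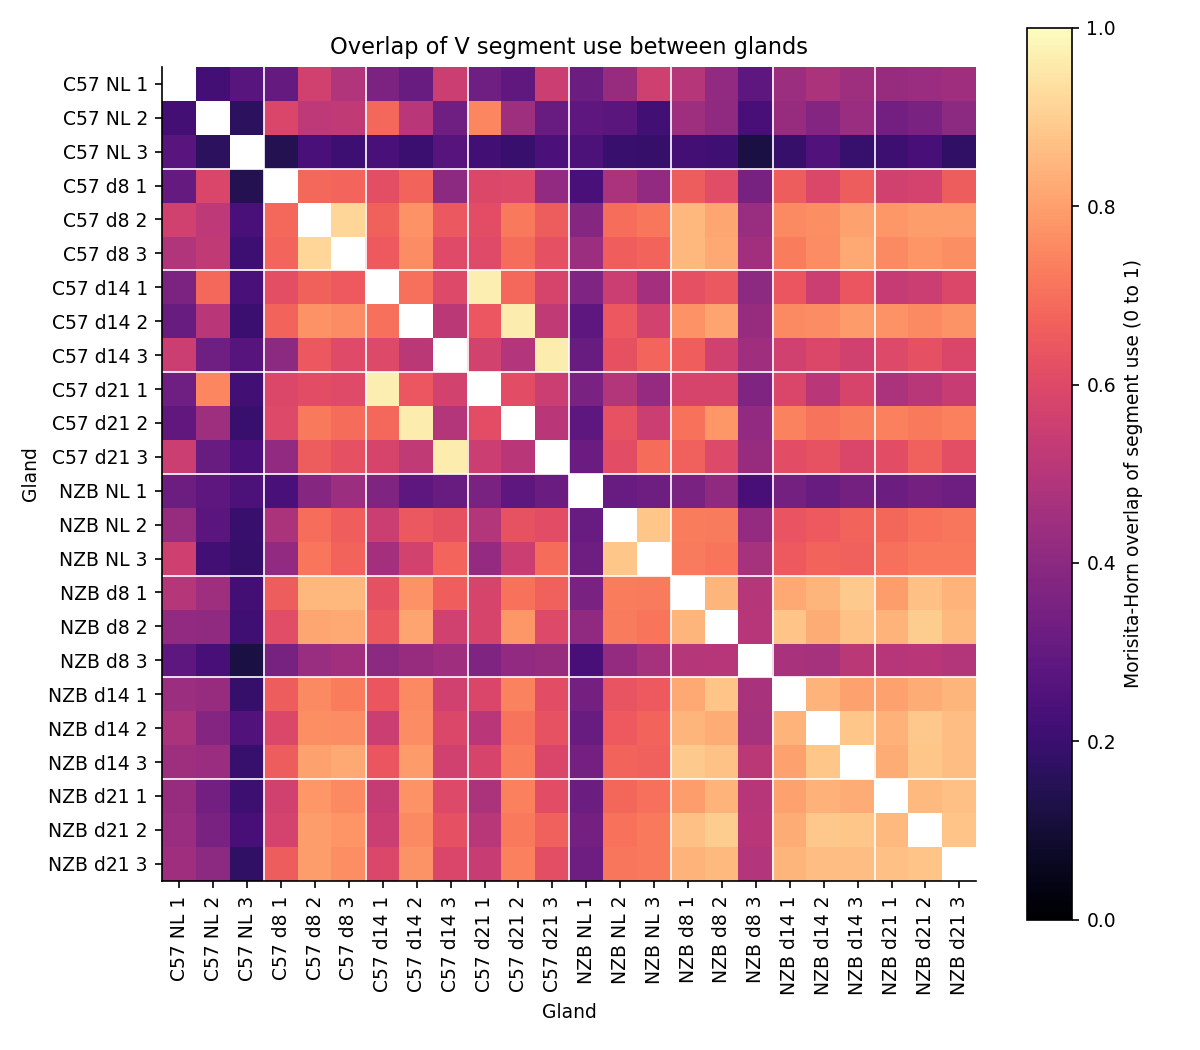
The colour of each cell is the Morisita-Horn overlap (0 to 1) of variable segment use between 2 of the 24 glands, labelled by genotype, stage (NL, non-lactating; d, day of lactation) and mouse number, with white lines between groups and a blank diagonal. Off the diagonal the brightest cells join C57 day 14 and day 21 glands of equal number (0.963 to 0.965), and C57 non-lactating mouse 3 has the darkest cells (down to 0.122).

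The summed level of the segments was lowest in C57 non-lactating glands and highest in NZB glands on day 21. In C57, mice 1, 2 and 3 had 21.1, 6.66 and 10.1 non-milk CPM in the non-lactating group, 40.0, 109 and 96.1 on day 8, 314, 409 and 393 on day 14, and 279, 509 and 415 on day 21. The C57 day 8 glands were all above the non-lactating glands, the day 14 glands were all above the day 8 glands, and days 14 and 21 overlapped. NZB mice had 19.0, 92.0 and 183 non-milk CPM in the non-lactating group, 229, 614 and 82.9 on day 8, 1041, 738 and 540 on day 14, and 1984, 464 and 1794 on day 21. The NZB groups overlapped with the preceding stage at each step on this scale. In deposited CPM the C57 non-lactating and day 8 glands overlapped, while the NZB day 14 glands were all above those of day 8 and the NZB day 21 glands all above those of day 14. As deposited, the sums ran from 6.64 CPM in C57 non-lactating mouse 2 to 1446 CPM in NZB day 21 mouse 1.

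**Figure D3:**
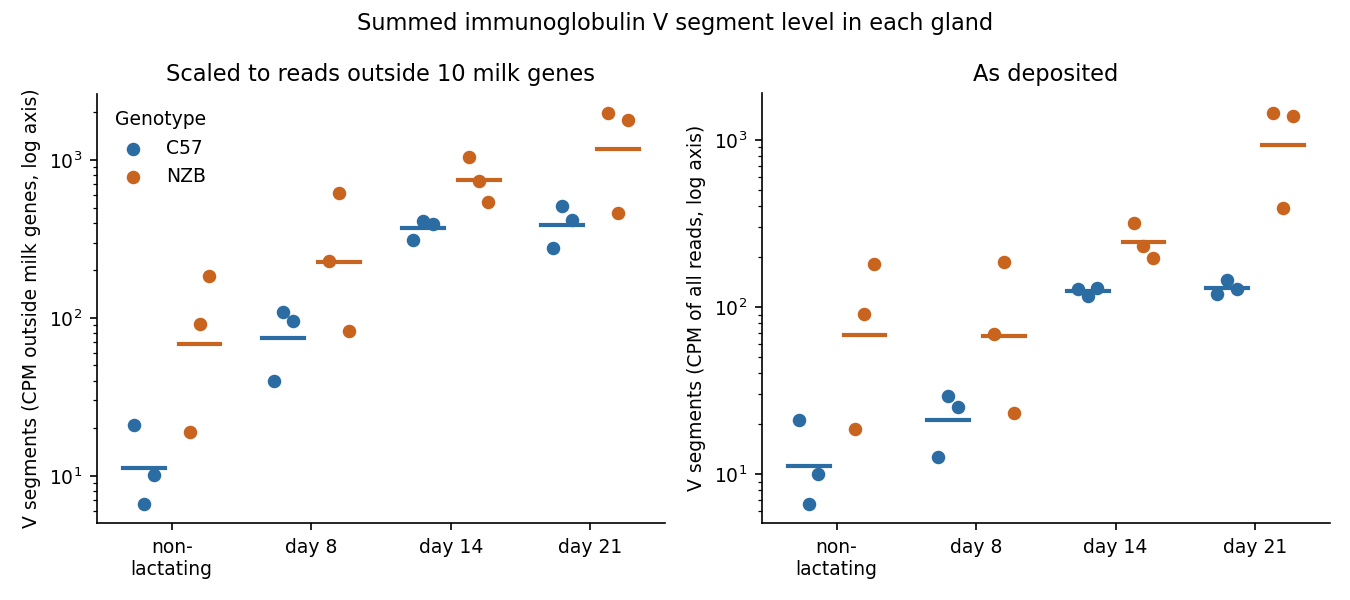
Points are single glands and bars are group means on the log scale of the summed level of 157 variable segments, by stage and genotype, in CPM outside 10 milk genes (left) and in CPM of all reads (right), both on log axes. On the left, C57 non-lactating glands lie at 6.66 to 21.1 and C57 day 21 glands at 279 to 509, and NZB glands at 19.0 to 183 and 464 to 1984.

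Lactating glands had a 12.96-fold higher summed segment level than non-lactating glands, as a ratio of geometric means over both genotypes on the non-milk scale. Over all 346 symbols the ratio was 12.6-fold, with an exact two-sided permutation p of 8.264e-05 (adjusted p = 0.000547 over 7 tests, stage labels permuted within genotype, 24 mice). Over these 346 symbols the ratio was 19.1-fold in C57 (exact permutation p = 0.004545, the smallest that 3 against 9 allows) and 8.33-fold in NZB (exact permutation p = 0.01364). As deposited, the ratio was 4.65-fold over both genotypes (exact permutation p = 0.006488), 6.08-fold in C57 (exact permutation p = 0.009091) and 3.56-fold in NZB (exact permutation p = 0.1773), so the NZB call rests on the milk genes being left out. Without the C57 day 21 glands the ratio over both genotypes was 11.0-fold, and without the C57 day 14 glands 11.1-fold (exact permutation p = 0.0002165 for both). In C57 alone it was 14.4-fold without the day 21 glands and 14.8-fold without the day 14 glands (exact permutation p = 0.0119 for both, the smallest that 3 against 6 allows).

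NZB glands had a 3.26-fold higher summed level than C57 glands over the 4 stages. Over all 346 symbols the ratio was 3.27-fold (exact two-sided permutation p = 0.0003125, adjusted p = 0.000547, genotype labels permuted within stage). The segments' ratio of geometric means was 6.09-fold in non-lactating glands, 3.03-fold on day 8, 2.02-fold on day 14 and 3.04-fold on day 21, and on this scale only on day 14 did the genotypes not overlap. As deposited, the ratio was 1.95-fold on day 14 and 7.09-fold on day 21, and the genotypes overlapped on neither day. Over all 346 symbols and 4 stages the deposited ratio was 4.04-fold (exact permutation p = 7.5e-05). Without the C57 day 21 glands, and so without that stage in the comparison, the non-milk ratio was 3.34-fold (exact permutation p = 0.00225), and without the C57 day 14 glands 3.83-fold (exact permutation p = 0.004). With 3 mice against 3 no exact p can fall below 0.1. The lactation change itself was not shown to differ between genotypes (a log2 difference of -1.20 over all 346 symbols, exact permutation p = 0.4555).

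On day 21 the summed level was 2.59-fold that of days 8 and 14, and over all 346 symbols 2.58-fold (exact permutation p = 0.03713, adjusted p = 0.0520, so it did not pass after adjustment). It was 3.84-fold without the C57 day 14 glands (exact permutation p = 0.007143), and as deposited 4.28-fold (exact permutation p = 0.005952). Over these symbols, the ratio in NZB alone was 2.86-fold on the non-milk scale (exact permutation p = 0.1429) and 7.22-fold as deposited (exact permutation p = 0.0119, the smallest that 3 against 6 allows). In C57 it was 2.33-fold on the non-milk scale (exact permutation p = 0.2381). NZB day 21 mouse 2 stood apart from the other two mice of its group, with 464 against 1984 and 1794 non-milk CPM.

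The kappa light chain segments held most of the RNA. Igkv segments made up 57.3% to 87.7% of variable segment CPM in a gland, Ighv segments 10.4% to 41.0% and the 3 Iglv segments 1.79% to 10.6%. In lactating glands the split was narrow, with 72.4% ± 2.07 (SD, n = 9) Igkv in the C57 lactating and 70.5% ± 1.49 (SD, n = 9) in the NZB lactating glands. NZB non-lactating mice 2 and 3 had the highest Iglv shares, 10.6% and 10.5%, against 1.79% in mouse 1. The annotated coding lengths of the 157 segments ran from 338 to 394 bases, so that CPM and CPM per length order them almost alike. All 157 are annotated as functional V genes in GENCODE M21 (GRCm38), on chromosome 12 (Ighv), 6 (Igkv) and 16 (Iglv), while 129 of the 189 symbols left out are annotated as V pseudogenes.

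A few segments made up most of the variable segment RNA in C57 non-lactating mice 1 and 3, while in lactating glands no segment held more than 14.5%. The shares of C57 non-lactating mouse 2 rest on 65 reads in the second column and cannot establish this. In C57 non-lactating glands the most abundant segment held 26.0%, 17.6% and 31.0% of variable segment CPM, and it was a different one in each: Igkv10-96, Igkv1-110 (level with Igkv14-111) and Igkv15-103. The 10 most abundant segments held 75.3%, 70.9% and 70.2% of the CPM there, and 4, 5 and 5 segments made up 50% of it. In NZB non-lactating mouse 1 the heavy chain segment Ighv8-12 held 24.7%, the only gland led by an Ighv segment. In NZB day 21 glands the leading segment, Igkv10-96 in all 3, held 6.04%, 5.50% and 6.35%, the top 10 held 30.6%, 27.4% and 33.5%, and 24, 26 and 23 segments were needed for 50%.

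The effective number of segments puts this on 1 scale. It is the inverse Simpson index, the number of equally used segments that would be as concentrated as the observed mixture. In mice 1, 2 and 3 it was 9.62, 12.002 and 8.39 in C57 non-lactating glands, 29.0, 32.5 and 32.2 on day 8, 26.9, 45.9 and 28.1 on day 14, and 23.6, 47.2 and 32.03 on day 21. NZB glands had 12.2, 43.1 and 39.9 in the non-lactating group, 44.6, 57.1 and 28.1 on day 8, 54.0, 53.1 and 54.3 on day 14, and 59.5, 64.0 and 53.7 on day 21. On this index the C57 lactating glands were all above the C57 non-lactating glands. With an unbiased index from the second column, however, C57 non-lactating mouse 2 stood at 31.5, above 4 C57 lactating glands (day 8 mouse 1 at 30.3, day 14 mice 1 and 3 at 26.4 and 27.8, and day 21 mouse 1 at 23.96). On days 14 and 21 every NZB gland was above every C57 gland with both indices.

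**Figure D4:**
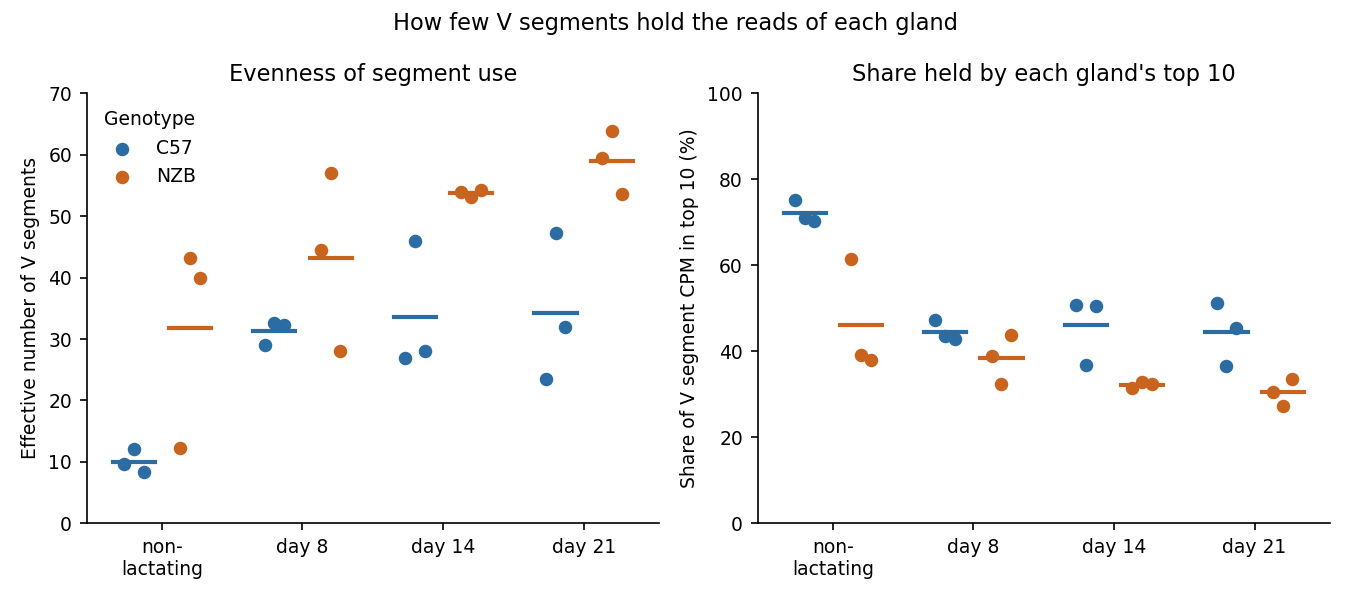
Points are single glands and bars are group means, by stage and genotype, of the effective number of variable segments (left) and of the share of variable segment CPM held by the 10 most abundant segments of the gland (%, right). C57 non-lactating glands sit at 8.39 to 12.002 and at 70.2% to 75.3%, and NZB day 21 glands at 53.7 to 64.0 and at 27.4% to 33.5%.

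Over all 346 symbols the effective number was 2.35-fold higher in lactating than in non-lactating glands (exact two-sided permutation p = 0.0002479, adjusted p = 0.000547) and 1.83-fold higher in NZB than in C57 glands (exact permutation p = 0.0001625, adjusted p = 0.000547). Without the C57 day 21 glands these ratios were 2.34-fold (exact permutation p = 0.0006494) and 1.85-fold (exact permutation p = 0.00225), and without the C57 day 14 glands 2.35-fold (exact permutation p = 0.0006494) and 1.89-fold (exact permutation p = 0.0025). Without C57 non-lactating mouse 2 they were 2.45-fold (exact permutation p = 0.0009917) and 1.87-fold (exact permutation p = 0.001388). Day 21 was 1.12-fold days 8 and 14 (exact permutation p = 0.3499). Without NZB non-lactating mice 2 and 3 the lactation ratio was 3.59-fold (exact permutation p = 0.0004545, the smallest possible there). Within NZB alone it was 1.76-fold with an exact permutation p of 0.05455, which did not pass.

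Depth sets how much of this can be read in the poorest glands. The second column held 315, 65 and 161 variable segment reads in the C57 non-lactating mice and 27403 in NZB day 21 mouse 1. In C57 non-lactating mouse 2 the top segment, Igkv1-110, rested on 6 of 65 reads in that column, 9.23% with an exact Clopper-Pearson 95% interval of 3.46% to 19.0%, and on a first column with 17 segment reads. For this mouse an unbiased index from the second column alone gave 31.5 in place of 12.002, so that the dominance of a few segments in this gland cannot be established at this depth. For the other C57 non-lactating mice the interval of the top segment was 20.7% to 30.6% (80 of 315 reads) and 26.3% to 41.4% (54 of 161 reads), counting error only. With every gland thinned to 60 reads, the expected number of segments seen was 22.3, 32.4 and 24.6 in C57 non-lactating mice, 32.2 to 37.8 in C57 lactating mice and 35.1 to 41.7 in NZB lactating mice.

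The segments that led the glands were few. Over 24 mice there were 8 leading segments and 22 that ranked among the top 3 anywhere, 16 of them kappa, 4 heavy and 2 lambda, while 100 of the 157 never reached a top 10. Igkv10-96 led 11 mice, was in the top 3 of 17 and in the top 10 of 23, and held 6.49% of variable segment CPM on average. Igkv1-110 led 5 mice, and averaged 4.99%. These means weight the 24 glands equally, whatever their depth. Means of 2.85% to 3.74% belonged to Igkv14-111, Igkv4-59, Igkv1-117, Igkv6-23 and Iglv1, among which no order is read. Igkv14-111 averaged 3.74%, and 3.14% without C57 non-lactating mouse 2, where it held 17.6%. In NZB lactating glands Igkv14-111 held 0.854% to 3.10%. By family, Igkv4 with 20 segments averaged 15.5%, Ighv1 with 40 segments 11.1% and Igkv1 with 7 segments 10.1%.

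**Figure D5:**
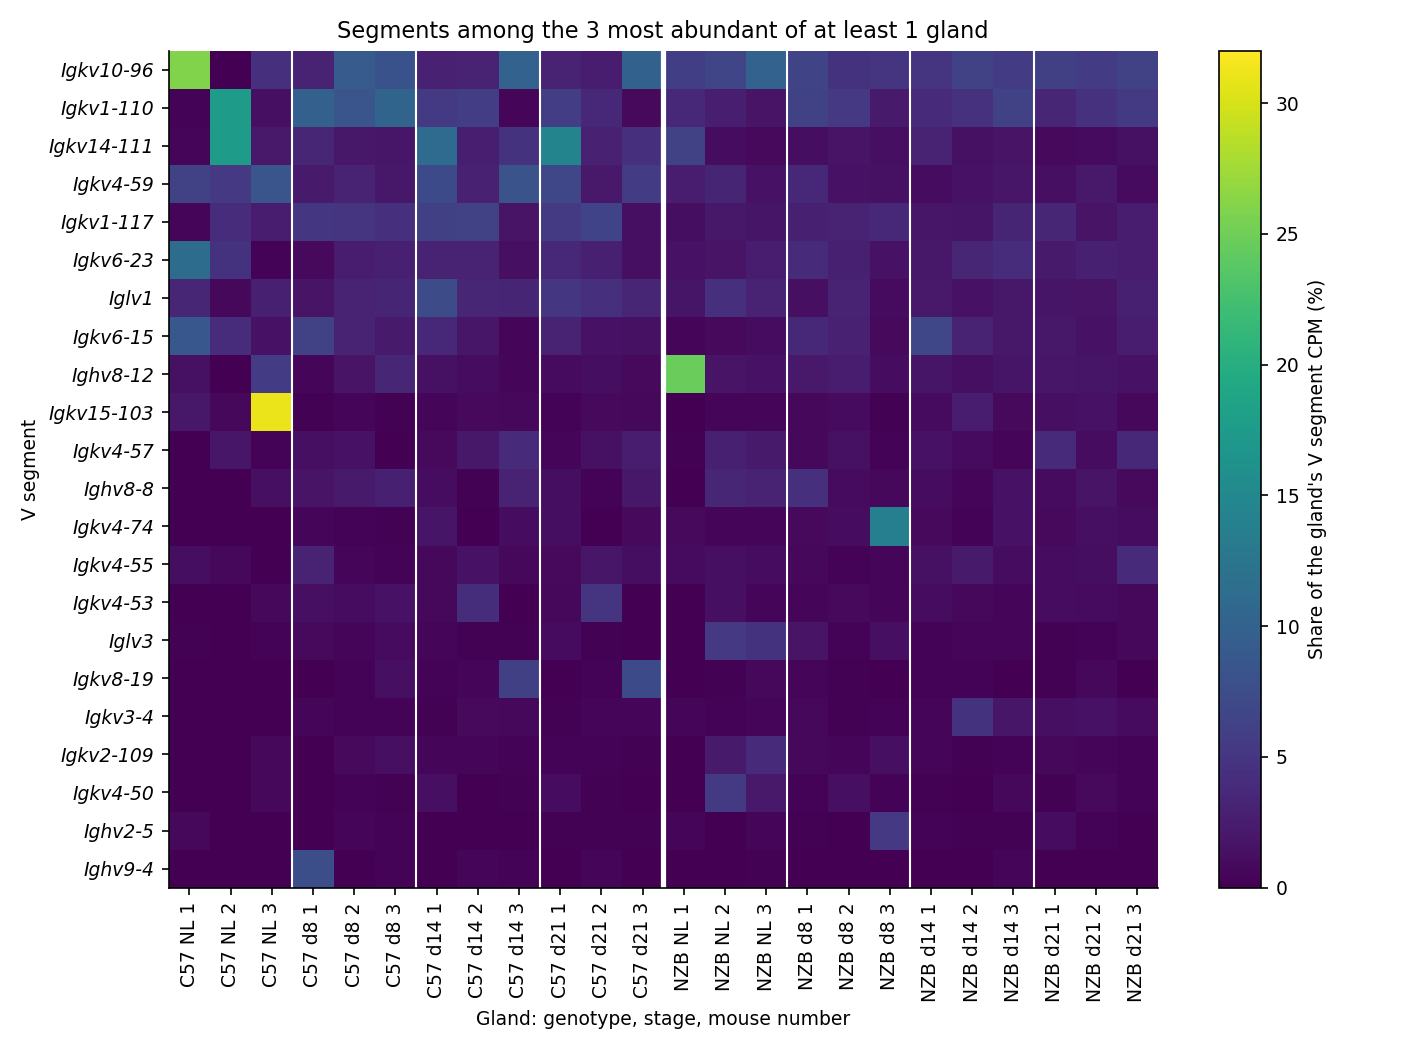
Colour is the share (%) of a gland's variable segment CPM held by each of the 22 segments that ranked among the 3 most abundant of at least 1 gland (rows, ordered by mean share), in the 24 glands (columns: genotype, stage, mouse number). Igkv10-96 is bright in most columns, Igkv15-103 in C57 NL 3 (31.0%), Ighv8-12 in NZB NL 1 (24.7%) and Igkv4-74 in NZB d8 3 (13.8%) each in 1 column, and Igkv8-19 in C57 d14 3 and d21 3 (6.12% and 7.25%).

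Igkv10-96 and Igkv1-110 were shared between glands, while some other segments had private peaks, each in 1 gland. Igkv10-96 held 4.64% to 6.57% of variable segment CPM in all 9 NZB lactating glands. In C57 non-lactating glands it held 26.0%, 0% and 4.39%, and in C57 lactating glands 2.57% to 10.1%. Igkv1-110 held 2.33% to 6.26% in NZB lactating glands and 0.605% to 10.3% in C57 lactating glands. Private peaks were Igkv15-103 at 31.0% in C57 non-lactating mouse 3 against at most 2.46% elsewhere, Igkv4-74 at 13.8% in NZB day 8 mouse 3 against at most 1.79% elsewhere, and Ighv9-4 at 7.72% in C57 day 8 mouse 1 against at most 0.401% elsewhere. Among the 36 pairs of NZB lactating glands the overlap had a median of 0.841, with a lowest value of 0.462, and over all 276 pairs the median was 0.591. These pairs share mice, and counting error lowers an overlap where segment reads are few.

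Single segments were tested with limma on log2(non-milk CPM + 1), where 118 of the 157 passed the minimum of 1 CPM in at least 3 mice and 39 did not. A segment that passed this minimum only through the group where it is high had to differ, so the counts describe these segments and support no more. A fold on this scale understates the change of a segment with a low level. In C57, 49 of the 118 were higher in lactating than in non-lactating glands and none lower (limma, adjusted p below 0.05). Of all 16160 genes tested 54% were called in either direction, 12.7% higher and 41.4% lower, and the median log2 change was 0.96 over the tested segments and -0.39 over all genes. In NZB, 98 of 118 were higher and none lower, where 54% of all genes were called, 15.1% higher and 38.9% lower, with medians of 1.61 and -0.35. By locus the calls were 14 of 51 Ighv, 34 of 64 Igkv and 1 of 3 Iglv in C57, and 43, 54 and 1 in NZB. Without the C57 day 21 glands 26 segments were called in C57, without the day 14 glands 28, and without a single C57 non-lactating mouse 28 (mouse 1), 25 (mouse 2) or 25 (mouse 3). Here and below, counts with glands left out and counts by limma voom come without the share of all genes called. They are not read as particular to the segments. On the deposited scale, where milk genes in lactation move the median of all genes to -1.66 in C57 and -1.29 in NZB, 15 were called higher in C57 (2.63% of all genes) and 84 in NZB (5.05% of all genes).

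In C57 the smallest adjusted p-values belonged to Igkv14-111, Igkv4-59 and Igkv1-117. Igkv14-111 stood at 0.10, 1.18 and 0.22 non-milk CPM in non-lactating glands, 1.39, 2.25 and 1.89 on day 8, 35.2, 11.0 and 18.2 on day 14, and 40.4, 15.2 and 17.9 on day 21. All lactating glands were above all non-lactating glands, but those of day 8 only slightly, and the day 14 and 21 values follow the mouse numbers. Its log2 change was 2.94 (SE 0.49, limma adjusted p = 2.74e-05). Igkv1-117, at 0.10 to 0.27 in non-lactating and 2.01 to 32.9 in lactating glands, changed by 3.11 (SE 0.56, limma adjusted p = 6.47e-05).

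In NZB the smallest adjusted p-values belonged to Ighv1-53, Igkv9-120 and Igkv5-43. Ighv1-53 stood at 0, 0.08 and 0.36 non-milk CPM in non-lactating glands, 1.48, 2.93 and 1.49 on day 8, 7.04, 6.78 and 4.79 on day 14, and 9.96, 2.98 and 21.6 on day 21. Every lactating gland was above every non-lactating gland, and the log2 change was 2.38 (SE 0.33, limma adjusted p = 3.75e-06). Igkv9-120 was at 0.08, 0 and 0 non-milk CPM in non-lactating and at 0.74 to 15.6 in lactating glands, and Igkv5-43 at 0, 0.85 and 2.55 in non-lactating and 3.26 to 37.6 in lactating glands. Among the lambda segments Iglv1 was called higher in both genotypes, by 2.89 in C57 and 1.86 in NZB (limma adjusted p = 0.000199 and 0.00949). Iglv3, at 4.92 and 8.63 non-milk CPM in NZB non-lactating mice 2 and 3 and 0 in mouse 1, was not called (0.02 in NZB, -0.70 on the deposited scale, limma adjusted p = 0.973). The leading segments Igkv10-96 and Igkv1-110 were also higher in lactation in both genotypes, with log2 changes of 2.55 and 2.89 in C57 and 2.37 and 3.30 in NZB (limma adjusted p = 0.00394, 0.000566, 0.00711 and 0.000171). Igkv15-103, which led C57 non-lactating mouse 3, had a log2 difference of 0.41 in C57 (SE 0.49, limma adjusted p = 0.504; -0.28 on the deposited scale) and was higher in NZB by 2.45 (SE 0.49, limma adjusted p = 0.000275). That difference between the genotypes was not tested.

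On day 21 against days 8 and 14, no segment passed in C57 and 46 of 118 were higher in NZB. In C57 limma called 0% of all 16160 genes, and limma voom also called 0 segments. At an unadjusted p below 0.05, 10 segments were higher and none lower. The share of all genes at that unadjusted threshold is not given, so no trend is read from this count. Without the C57 day 14 glands 3 segments were called. In NZB 41.4% of all genes were called, 34.7% higher and 6.68% lower, so the share of segments called, 39.0%, was near that background, and the median log2 changes were 1.07 for the segments and 0.40 for all genes. Genes of other cell types moved in the same comparison. All 10 macrophage genes (median log2 change 1.68) and 7 of 10 white adipocyte genes (1.76) were called higher, and of 8 luminal epithelium genes 6 were higher and 1 lower (1.79). The lower one, Elf5, a factor of milk-making epithelium, changed by -0.71, and by 0.62 on the deposited scale. The part of these cell types in the segment result was not tested. On the deposited scale 115 segments and 89% of all genes were called higher. The count also rested on single glands, with 16 without NZB day 21 mouse 1, 22 without mouse 3, 81 without mouse 2 and 71 without NZB day 8 mouse 2. Ighv1-77 stood at 4.07, 1.59 and 4.16 non-milk CPM on day 21, and at 0.47, 0.36 and 0 on day 8 and 0.35, 0.21 and 1.27 on day 14. All 3 day 21 glands were above the other 6, and the log2 change was 1.55 (SE 0.24, limma adjusted p = 4.47e-05).

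Between genotypes, 68 of 118 segments were higher in NZB in lactation, none was lower, and none passed in non-lactating glands. In lactation 9.87% of all genes were called, 8.29% higher and 1.58% lower in NZB, and the medians were 1.02 for the segments and 0.17 for all genes. Limma voom called 32, and on the deposited scale 105 segments and 63.9% of all genes were called higher. The smallest adjusted p-values belonged to Igkv3-5, Igkv6-14 and Igkv8-21. Igkv3-5 was at 0 to 0.85 non-milk CPM in C57 lactating glands and at 0 to 15.6 in NZB ones, with NZB day 8 mouse 3 at 0. Igkv6-14 was at 0 to 0.49 non-milk CPM in the 9 C57 lactating glands and at 0.54 to 11.2 in the 9 NZB ones, with no overlap, and the log2 difference was 1.59 (SE 0.25, limma adjusted p = 0.000605). Igkv14-111 (-0.16, SE 0.35, limma adjusted p = 0.804) and Igkv4-59 (0.06, SE 0.30, limma adjusted p = 0.921) did not pass. In non-lactating glands 5.56% of all genes were called, 1.89% higher and 3.67% lower, and limma voom also called 0 segments. At an unadjusted p below 0.05, 7 segments were higher and none lower. The share of all genes at that unadjusted threshold is not given either, so no trend is read from this count. On the deposited scale 2 segments and 2.98% of all genes were called higher. The log2 differences of single segments there ran from -0.41 to 1.91, and without NZB non-lactating mouse 1 limma called 5.

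The constant regions give the class of the heavy chains behind these segments. Igha, the heavy chain of IgA, held 12.4%, 2.27% and 7.90% of heavy constant CPM in C57 non-lactating glands and 80.8% to 96.4% in C57 lactating glands. In NZB it held 38.3% in mouse 1 and at most 15.5% in mice 2 and 3 of the non-lactating group and 65.4% to 98.0% in lactation, with the lowest of these values in day 8 mouse 3. Ighm and Ighd, the IgM and IgD heavy chains of unswitched B cells, together held 86.3%, 97.6% and 91.8% in C57 and 46.9%, 82.1% and 83.8% in NZB non-lactating glands, and 0.508% to 16.2% in lactating glands. In C57 limma called 4 of 7 measured heavy constant genes higher in lactation (Igha, Ighg1, Ighg2b and Ighg2c), 1 lower (Ighm) and 2 in neither direction (Ighd and Ighg3). The median log2 change of the 7 was 2.47 in C57 and -0.09 in NZB, where 2 were called higher (Igha and Ighg2b), 2 lower (Ighm and Ighd) and 3 in neither direction. With milk genes in the total, as deposited, 4 were higher and 1 lower in C57, and 1 was higher (Igha) and 3 lower (Ighm, Ighd and Ighg2c) in NZB. Ighe was not tested, as it did not pass the minimum level. Igha rose by 5.76 on the log2 scale in C57 (SE 0.57, limma adjusted p = 1.93e-08) and by 3.40 in NZB (SE 0.57, limma adjusted p = 3.49e-05). Ighm fell by 2.56 in C57 (limma adjusted p = 0.000534) and by 3.53 in NZB (limma adjusted p = 1.89e-05).

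Among light chains Igkc, the kappa constant region, rose by 4.70 in C57 (SE 0.62, limma adjusted p = 1.37e-06) and by 2.88 in NZB (SE 0.62, limma adjusted p = 0.000570), and 4 of 4 light constant genes in C57 and 2 of 4 in NZB (Igkc and Iglc1) were called higher. On the deposited scale Igha, Igkc and Iglc1 kept their calls in both genotypes. The ratio of summed Igkv CPM to Igkc CPM was 0.377 to 0.728 in the 18 lactating glands and 0.310 to 1.44 in the non-lactating glands, where 1.44 belongs to C57 non-lactating mouse 2. Ighg2c, the IgG2c heavy chain, separated the non-lactating glands, at 21.6, 17.0 and 16.7 non-milk CPM in NZB and 0.0689, 0 and 0.189 in C57, a log2 difference of 4.16 (SE 0.42, limma adjusted p = 2.99e-06).

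Genes of the cells that make and move antibody were read from lists. Of 12 measured plasma cell genes 7 were higher and 1 lower in C57 lactation, and 5 higher and 1 lower in NZB. The backgrounds were the 12.7% higher and 41.4% lower of all genes in C57 and the 15.1% and 38.9% in NZB given above. Jchain, which joins IgA into pairs for transport, rose by 4.18 in C57 (SE 0.48, limma adjusted p = 1.56e-07) and 3.76 in NZB (SE 0.48, limma adjusted p = 1.01e-06), from 5.57 to 7.82 non-milk CPM in C57 non-lactating glands to 30.1 to 296 in lactation. Derl3, Xbp1, Txndc5 and Fkbp11, also called higher in both, serve protein folding and secretion in other secretory cells too. The gene called lower was Sdc1, a surface marker of plasma cells that epithelium also carries, in C57, and Irf4, a factor of B, T and plasma cells, in NZB. On the deposited scale the plasma cell counts were 3 higher and 6 lower in C57 and 4 higher and 7 lower in NZB, where 2.63% and 5.05% of all genes were called higher and 89.3% and 84.5% lower. Within the list only Jchain, Derl3 and Fkbp11 were called higher in both genotypes on both scales. Pigr rose by 8.62 in C57 and 6.65 in NZB (limma adjusted p = 1.68e-18 and 3.39e-16), and Ccl28 by 6.92 and 4.81 (limma adjusted p = 1.06e-12 and 6.58e-10). On day 21 in NZB, where the summed segment level was highest, Ccl28 fell by 4.27 against days 8 and 14 on the non-milk scale (SE 0.39, limma adjusted p = 6.60e-08) and Pigr by 1.49 (SE 0.21, limma adjusted p = 1.69e-05), and Ccl28 stood at 25.6 to 129 non-milk CPM against 610 to 1812. As deposited, Ccl28 stood at 21.7 to 94.0 CPM against 185 to 544, while Pigr overlapped, at 719 to 1043 CPM against 592 to 1241.

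Lists of B cell genes were read beside the segments. Of 13 measured B cell genes none was higher in lactating glands of either genotype. In C57 only Ebf1 was called, and it was lower, and in NZB all 13 were lower. Of all genes 12.7% were higher and 41.4% lower in C57, and 15.1% and 38.9% in NZB. On the deposited scale 5 of the 13 were lower in C57 and 13 in NZB, where 89.3% and 84.5% of all genes were lower. These counts were not run without NZB non-lactating mice 2 and 3, described next. Ebf1 is also a gene of fat cells, and all 10 white adipocyte genes were lower in lactation in both genotypes, against the same shares of all genes. NZB non-lactating mice 2 and 3 had high lymphocyte genes, with Ighd at 308 and 696 non-milk CPM against 1.68 to 7.17 in the other 4 non-lactating glands, the T cell gene Cd3e at 33.4 and 265 against 2.19 to 3.93, and Ccl21a, a lymph node chemokine, at 43.3 and 236 against 0.189 to 1.65. The same mice had the largest summed segment level, 92.0 and 183 non-milk CPM, and the largest effective number, 43.1 and 39.9, among non-lactating glands, and their mixtures overlapped by 0.881. The 13 B cell genes together held 1378 and 2633 non-milk CPM there, 290 to 368 in the other 4 non-lactating glands, and 35.4 to 242 in lactating glands, the highest in NZB day 14 mouse 1. The part of these genes in the segment results was not tested. Without these mice, which leaves 1 NZB non-lactating mouse, the NZB to C57 ratio over all 346 symbols was 2.36-fold and the lactation ratio 24.2-fold.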

How the data were processed

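Polyadenylated RNA of 24 inguinal mammary glands was analysed from 1 table of 32544 gene symbols and 48 columns, 2 per mouse, one for each read file of a pair. The authors deposited log10(CPM + 1), as shown by column sums of 1000000 CPM after conversion. The submitters' processing notes name the builds GRCm38 and mm10, and no aligner or counter is named in the sources used here. Whole reads were recovered in 100% of values within a tolerance of 0.05. The 2 columns of a mouse were averaged in CPM and counted as 1 replicate. The values were converted to CPM, and for the main scale 10 milk genes were left out of the total.

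Genes were tested with limma 3.58.1 in R 4.3.3 (lmFit, contrasts.fit, eBayes with trend) on log2(non-milk CPM + 1), in one fit of all 24 mice with a mean for each of the 8 groups (16 residual degrees of freedom). P-values were adjusted by Benjamini-Hochberg over 16160 genes in each of the 6 comparisons, and 0.05 was the threshold. The script was tested on simulated data. Summed levels and effective numbers were compared on the log2 scale by exact two-sided permutation over mice, with adjustment over 7 tests. Nothing says that mice of a group came from separate litters or cages, and p-values measure only the spread between these samples.

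The members, the 12 gene lists and the rule for naming genes were chosen with earlier results of these data known. Named are the top 3 segments of each mouse, per comparison the 3 called segments with the smallest adjusted p, all constant region genes, and up to 4 genes of another list. Positions and coding sequences are from GENCODE M21 (GRCm38), with all 157 symbols matched. The mouse numbers were checked for pairing by the correlation of deviations from group means. They paired C57 days 14 and 21 in segment use (0.739 to 0.775) but not over all genes (0.0571 to 0.486), and the main tests use no block. Alternatives were other scales, pseudocounts, filters, columns, member rules, a replicate block, limma voom and leaving out mice. Python 3.11.15, numpy 2.4.6, pandas 2.3.3 and scipy 1.17.1 were used.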

Additional observations from a re-analysis of the deposited data

How the results depend on the processing

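Counts of called segments moved most with the scale and with single glands. They are given here without the share of all genes called in each setting, and are not read as particular to the segments. Over the chosen segments the log2 difference of the summed level between lactating and non-lactating glands was 3.70, with 3.24 to 4.05 when 1 mouse was left out. NZB against C57 ran from 1.53 to 1.94, the effective number from 0.998 to 1.45 for lactation and from 0.784 to 1.01 for genotype, and these 4 kept their direction and their side of 0.05. With Ighv segments alone the genotype difference of the effective number was 0.52 and did not pass. The day 21 difference passed before adjustment in the main setting but not with a replicate block (1.38) or without the C57 day 21 glands (1.52), and ran from 1.14 to 1.71 with 1 mouse left out, where 7 of 18 settings did not pass (without C57 day 8 mouse 2 or 3, C57 day 21 mouse 2 or 3, NZB day 8 mouse 1, or NZB day 21 mouse 1 or 3). For the effective number on day 21 the range was 0.0513 to 0.302. The genotype difference of the lactation change ran from -2.13 to -0.49 and turned to 0.64 without NZB non-lactating mice 2 and 3. The cause was not tested. Segments called higher with 1 mouse left out numbered 25 to 58 for C57 lactation, 79 to 105 for NZB lactation, 0 to 0 for C57 day 21, 16 to 81 for NZB day 21, 0 to 5 for genotype in non-lactating glands and 47 to 84 in lactating glands. On the deposited scale the counts were 15 for C57 lactation, 115 for NZB day 21, and 2 in non-lactating and 105 in lactating glands for genotype. A pseudocount of 0.25 gave 1 for genotype in non-lactating glands, no filter gave 31 for C57 lactation, where more genes were tested, and limma voom gave 32 for genotype in lactation. Without the C57 day 21 glands 26 were called for C57 lactation, and without the day 14 glands 28, with 3 for C57 day 21. The replicate block gave 49, 96, 0, 44, 0 and 69 segments in the 6 comparisons and changed no other call. The planned count test and its normalization were not run, since the values are log10(CPM + 1), and limma voom, the settings without C57 day 14 or day 21 glands and that without NZB non-lactating mice 2 and 3 were chosen after seeing the data. In glands with few segment reads, 65 in C57 non-lactating mouse 2, depth limits what a share can show.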
